A study of Mus musculus with 15 samples.

Results

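The genes described here encode the subunits of PRC1.6, a non-canonical Polycomb repressive complex. They are the 10 genes *Pcgf6*, *Mga*, *Max*, *E2f6*, *L3mbtl2*, *Tfdp1*, *Rybp*, *Yaf2*, *Cbx3* and *Wdr5*, chosen by name for their place in the complex out of 55536 genes in the count table. Each was found once by its GENCODE M21 symbol, and all 10 were among the 18090 genes that passed the filter on low counts. The lowest raw count of any of them in any sample was 110.

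The RNA came from a mouse embryonic stem cell (ESC) system for making primordial germ cell-like cells (PGCLCs), in 15 samples with 3 in each of 5 groups. Every group, the controls included, carried the *Stella-eGFP* reporter, which marks germ cells through *Stella* (*Dppa3*) regulatory sequence, and 4 transgenes (4TF: *Prdm1*, *Prdm14*, *Tfap2c* and *Nanog*) under Tet-inducible promoters, which doxycycline (Dox) switches on through the transactivator rtTA. ESCs were naive cells in medium with LIF and the 2 inhibitors PD0325901 and CHIR99021. Epiblast-like cells (EpiLCs) were made from them in 48 h of Activin A and bFGF. D2PGCLCs, D4PGCLCs and D6PGCLCs were *Stella-eGFP*+ cells sorted at days 2, 4 and 6 after Dox was given to EpiLC aggregates at 2 μg/ml, so that no cytokine drove the induction. The methods describe the transgenic ESCs as clonal, so replicates may stem from 1 clone, and p-values measure only the spread between these samples.

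PRC1.6 is one of several PRC1 variants, each built around RING1A or RING1B, the enzymes that ubiquitinate histone H2A on lysine 119, and one PCGF protein. PCGF6 defines this variant, and the pairs MGA with MAX and E2F6 with DP1 (the product of *Tfdp1*) bring it to E-box and E2F sequences in DNA. In ESCs the complex is known to keep meiotic and other germline genes silent, and many of those genes become active again when PRC1.6 subunits are lost.

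The letters these DNA-binding pairs are known for occurred in the promoters of 9 (E-box) and 8 (E2F) of 18 germline genes. The windows were the 250 bases before the transcription start in RefSeq (GRCm38.p6), searched on both strands for the E-box CACGTG, the E2F letters GCGGGA and the T-box letters AGGTGT, the last because MGA also carries a T-box domain. The list of germline genes (*Ddx4*, *Dazl*, *Tdrkh*, *Slc25a31*, *Stk31*, *Taf7l*, *Tex101*, *Mael*, *Zcwpw1*, *Stag3*, *Smc1b*, *Hormad1*, *Sycp1*, *Sycp3*, *Meioc*, *Stra8*, *Tuba3a* and *Tuba3b*) was made as one of targets of this repression, so its comparison with all promoters is not independent of that choice. The 18 genes matched 21 promoters. The windows of *Hormad1* overlap, as do those of *Stk31*, so the same letters were counted in both promoters of each gene. The E-box was in 11 of them (52.4%, from 9 genes), against 6.02% of all 32851 promoters. The E2F letters were in 9 (42.9%, from 8 genes), against 16.9% of all promoters, and the T-box letters in 3 (14.3%), against 11.8%. Both the E-box and the E2F letters stood before 4 of the 18 genes, where 1.45% of all promoters held both. The sequences of these 4 are shown 5′ to 3′ up to the base before the start, with the searched letters in capitals. *Ddx4* encodes a germ cell RNA helicase, *Hormad1* and *Sycp3* encode proteins of the meiotic chromosome axis, and *Mael* acts in the silencing of transposons.
Ddx4 (chr13:112652311-112652560, minus strand): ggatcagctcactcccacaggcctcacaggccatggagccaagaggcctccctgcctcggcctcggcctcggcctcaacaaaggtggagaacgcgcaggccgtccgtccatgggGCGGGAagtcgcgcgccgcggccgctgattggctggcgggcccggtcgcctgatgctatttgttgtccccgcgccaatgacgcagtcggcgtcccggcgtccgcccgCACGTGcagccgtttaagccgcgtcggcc
Hormad1 (chr3:95559427-95559676, plus strand): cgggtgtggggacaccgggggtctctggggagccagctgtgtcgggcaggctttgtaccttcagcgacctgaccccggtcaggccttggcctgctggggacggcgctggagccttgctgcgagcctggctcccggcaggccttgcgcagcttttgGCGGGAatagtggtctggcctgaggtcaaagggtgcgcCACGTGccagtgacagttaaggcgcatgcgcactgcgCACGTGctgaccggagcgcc
Sycp3 (chr10:88459337-88459586, plus strand): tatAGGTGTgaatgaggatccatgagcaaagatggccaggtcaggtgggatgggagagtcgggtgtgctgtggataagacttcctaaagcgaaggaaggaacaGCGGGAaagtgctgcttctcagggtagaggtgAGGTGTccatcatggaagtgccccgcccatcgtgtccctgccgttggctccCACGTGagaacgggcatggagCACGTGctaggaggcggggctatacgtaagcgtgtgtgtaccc
Mael (chr1:166238745-166238994, minus strand): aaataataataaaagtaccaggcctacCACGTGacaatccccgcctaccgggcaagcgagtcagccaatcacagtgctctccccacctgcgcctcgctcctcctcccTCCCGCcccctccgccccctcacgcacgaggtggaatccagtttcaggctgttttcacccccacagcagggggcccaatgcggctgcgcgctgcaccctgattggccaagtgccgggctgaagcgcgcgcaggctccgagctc
No 2 matches shared a base. A match is a run of letters, and binding was not measured here. The promoters of *Dazl*, *Tdrkh*, *Tex101* and *Stra8* held none of the 3 motifs, which says only that these letters were not in that window.

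Of the PRC1.6 genes, 8 matched a promoter, and *Rybp* and *Yaf2* did not. These 8 genes matched 10 promoters. Only *E2f6* and *Tfdp1* among them held E2F letters (3 promoters, 30.0%, against 16.9% of all promoters). Only *Tfdp1* held an E-box (1 promoter, 10.0%, against 6.02%). No result about the PRC1.6 genes is read from counts this small. The sequences of *E2f6* and *Tfdp1* follow with the same capitals.
E2f6 (chr12:16810715-16810964, plus strand): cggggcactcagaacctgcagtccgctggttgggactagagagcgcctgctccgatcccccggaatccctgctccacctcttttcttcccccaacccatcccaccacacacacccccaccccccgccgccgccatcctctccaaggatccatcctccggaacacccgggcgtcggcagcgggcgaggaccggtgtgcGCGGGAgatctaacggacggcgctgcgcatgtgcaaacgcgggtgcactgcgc
Tfdp1 (chr8:13338501-13338750, plus strand): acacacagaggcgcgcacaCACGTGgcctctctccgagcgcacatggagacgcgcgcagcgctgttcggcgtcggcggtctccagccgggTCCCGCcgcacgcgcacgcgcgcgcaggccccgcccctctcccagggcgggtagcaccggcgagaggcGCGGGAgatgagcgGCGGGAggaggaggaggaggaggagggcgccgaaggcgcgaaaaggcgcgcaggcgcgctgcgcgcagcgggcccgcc
The match in *E2f6* began 53 bases before the start. Those in *Tfdp1* began 160, 92 and 78 bases before the start shown, and its E-box 231 bases before it. Another start of *Tfdp1* (window chr8:13338554-13338803) had E2F letters 213, 145 and 131 bases before it and no E-box in the window. The windows of *Tfdp1* overlap, and these are the same E2F letters.

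Total counts ran from 22555021 to 42725681 per sample. D6PGCLC replicate 1 stood apart with 18061 genes detected at 1 count or more, against 21103 to 24343 in the other 14 samples, so counts of genes that passed, medians and ratios that use it are also given without it. The levels per kilobase and the correlations were not repeated without it. The groups carried their marker genes. Summed over 5 PGC markers, the level was 681 to 873 CPM (read counts scaled to a common library size) in PGCLCs against 113 to 119 in ESCs and 222 to 230 in EpiLCs, although *Dppa3* is the gene behind the sort and the counts of *Prdm1* and *Tfap2c* may include transgene reads. The 4 EpiLC markers summed to 1824 to 1966 CPM in EpiLCs and to at most 69.1 in PGCLCs. The 5 naive markers reached 1471 to 1495 CPM in ESCs and 830 to 1131 CPM in PGCLCs but only 238 to 264 CPM in EpiLCs. From D2PGCLCs to D6PGCLCs, 4 endoderm markers went from 0.690–1.15 to 9.03–16.9 CPM and 4 mesoderm markers from 1.65–2.80 to 11.2–17.4 CPM, with *Mesp1* at 0 in EpiLCs and D2PGCLCs. In ESCs these sums were 5.07 to 6.36 and 16.6 to 17.2 CPM. Over those days the median log2 fold change was 2.34 for the endoderm markers. For the 3 mesoderm markers tested it was -0.12, and the highest of them reached 3.40. The 4 neuroectoderm markers summed to 65.3 to 71.6 CPM in EpiLCs and to at most 20.2 in the other groups, and the 4 fibroblast markers to at most 19.7 in EpiLCs and 8.38 elsewhere, with *Col3a1* at 0 in ESCs. The part of these other cell types in the results that follow was not tested.

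Levels per gene are given as CPM normalized by TMM, which scales each library for its composition. Tests are edgeR quasi-likelihood tests with Benjamini-Hochberg adjustment over all 18090 genes, and a gene passed at an adjusted p under 0.05. In these bulk samples, fewer cells with a transcript and less transcript per cell cannot be told apart. Counts per gene also merge all isoforms of a gene.

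*Pcgf6* (ENSMUSG00000025050, chromosome 19 from 47033617 to 47050906 on the minus strand), the subunit that defines the complex, was highest in EpiLCs and lowest in D6PGCLCs. Its level in the 3 ESC samples was 97.4, 101 and 86.5 CPM, and in the EpiLCs it was 109, 123 and 111 CPM. In D2PGCLCs it was 96, 97.5 and 97 CPM, in D4PGCLCs 83.4, 74 and 81.9 CPM and in D6PGCLCs 68.9, 65.6 and 69.6 CPM. The D6PGCLC samples lay below every sample of the other groups, and the EpiLC samples above every other. From EpiLCs to D6PGCLCs *Pcgf6* fell by 40.4% (log2 fold change -0.75, standard error 0.08, adjusted p = 1.98e-07). It was also lower than in ESCs (log2 fold change -0.48, standard error 0.08, adjusted p = 4.9e-05). The rise from ESCs to EpiLCs was small (log2 fold change 0.27, standard error 0.08, adjusted p = 0.00803) and did not pass without ESC replicate 3 (adjusted p = 0.0528).

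*L3mbtl2* (ENSMUSG00000022394, chromosome 15 from 81663889 to 81688315 on the plus strand), which encodes the MBT-domain subunit that contacts chromatin, was lowest at day 6. The ESC samples were at 259, 226 and 257 CPM and the EpiLC samples at 250.2, 257 and 272 CPM. D2PGCLCs were at 223, 213 and 221 CPM and D4PGCLCs at 201, 239 and 187 CPM. D6PGCLCs were at 135, 161 and 145 CPM, below all 12 other samples. Between ESCs and EpiLCs the samples overlapped and the difference did not pass (log2 fold change 0.07, adjusted p = 0.541). Relative to EpiLCs, D6PGCLCs had 43.3% less *L3mbtl2* transcript (log2 fold change -0.82, standard error 0.09, adjusted p = 4.01e-07), and relative to D4PGCLCs the fall also passed (log2 fold change -0.51, standard error 0.09, adjusted p = 0.00151), as it did without each of the 6 samples in turn.

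*Mga* (ENSMUSG00000033943, chromosome 2 from 119897228 to 119969581 on the plus strand), the large scaffold with a T-box and a MAX-binding domain, was lower in all 9 PGCLC samples than in ESCs and EpiLCs. Its level was 382, 421 and 421 CPM in ESCs and 365, 445 and 393 CPM in EpiLCs, with the groups overlapping. It was 343, 318 and 282 CPM in D2PGCLCs and 268, 208 and 152 CPM in D4PGCLCs, where the coefficient of variation was 27.8%, the widest spread of any of the 10 genes in any group. In D6PGCLCs it was 213, 259.6 and 221 CPM, within the range of the D4PGCLC samples. From EpiLCs to D6PGCLCs *Mga* fell by 42.3% (log2 fold change -0.79, standard error 0.14, adjusted p = 0.000121). The ESC to EpiLC difference did not pass (log2 fold change -0.03, adjusted p = 0.899), and its sign turned with the scaling.

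*Max* (ENSMUSG00000059436, chromosome 12 from 76937269 to 76962201 on the minus strand), the partner of MGA that also pairs with MYC, rose from ESCs to EpiLCs and was lower again at day 6. It was at 77, 75.4 and 81.2 CPM in ESCs and 108, 109 and 111 CPM in EpiLCs, with no overlap. D2PGCLCs had 107, 120.0 and 115 CPM, D4PGCLCs 101, 117 and 115 CPM and D6PGCLCs 79.5, 90.8 and 99.8 CPM. The rise into EpiLCs passed (log2 fold change 0.49, standard error 0.09, adjusted p = 9.99e-05). The fall from EpiLCs to D6PGCLCs also passed (log2 fold change -0.28, standard error 0.09, adjusted p = 0.00884), but not without D6PGCLC replicate 1, the sample with few detected genes (adjusted p = 0.0704). D6PGCLC and ESC samples overlapped, and their difference (log2 fold change 0.21, standard error 0.09, adjusted p = 0.0488) was lost without ESC replicate 1, ESC replicate 2, D6PGCLC replicate 2 or D6PGCLC replicate 3 (adjusted p = 0.124, 0.146, 0.105 and 0.211), and with no filter on low counts (adjusted p = 0.0912).

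*E2f6* (ENSMUSG00000057469, chromosome 12 from 16810963 to 16839742 on the plus strand), an E2F factor that represses without binding the retinoblastoma protein, had its lowest level in ESCs. The ESC samples were at 20.5, 20.2 and 19.9 CPM and the EpiLC samples at 38.5, 35.2 and 34.7 CPM. D2PGCLCs were at 33.3, 39.3 and 39.7 CPM, D4PGCLCs at 31.6, 33.2 and 31.5 CPM and D6PGCLCs at 25.9, 25.7 and 25.6 CPM. The ESC samples lay below every other sample and the D6PGCLC samples lay between them and all the rest. *E2f6* rose 1.79-fold from ESCs to EpiLCs (log2 fold change 0.84, standard error 0.09, adjusted p = 3.66e-07). It fell from EpiLCs to D6PGCLCs (log2 fold change -0.49, standard error 0.09, adjusted p = 0.000143) and at day 6 lay above ESCs (log2 fold change 0.35, standard error 0.09, adjusted p = 0.00342).

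*Tfdp1* (ENSMUSG00000038482, chromosome 8 from 13338751 to 13378448 on the plus strand), the DP1 partner of E2F6 and of the activating E2F factors, was far more abundant than *E2f6*. Its level was 246, 273 and 256 CPM in ESCs and 317, 304 and 297 CPM in EpiLCs. D2PGCLCs had 256, 260.3 and 279 CPM, D4PGCLCs 259.8, 272 and 263 CPM and D6PGCLCs 218, 214 and 191 CPM. EpiLCs were above and D6PGCLCs below all other samples, and the remaining 3 groups overlapped. From EpiLCs to D6PGCLCs *Tfdp1* fell (log2 fold change -0.56, standard error 0.07, adjusted p = 2.61e-06), and D6PGCLCs were also below ESCs (log2 fold change -0.32, standard error 0.07, adjusted p = 0.00123). The rise from ESCs to EpiLCs (log2 fold change 0.24, standard error 0.07, adjusted p = 0.00862) did not pass without ESC replicate 1 (adjusted p = 0.0542).

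*Rybp* and *Yaf2* encode related proteins, which take the same place in PRC1 and stimulate H2A ubiquitination. *Rybp* (ENSMUSG00000072872, chromosome 6 from 100228565 to 100287485 on the minus strand) was at 133, 148 and 151 CPM in ESCs and 182, 237 and 209.6 CPM in EpiLCs. It was at 175, 168 and 181 CPM in D2PGCLCs, 165, 181 and 133 CPM in D4PGCLCs and 165, 196 and 162 CPM in D6PGCLCs, and these 3 groups overlapped. It rose from ESCs to EpiLCs (log2 fold change 0.54, standard error 0.11, adjusted p = 0.000529). The lower level in D6PGCLCs than in EpiLCs did not pass (log2 fold change -0.26, standard error 0.11, adjusted p = 0.0505), and this call turned with single samples. The log2 fold change was -0.35 without EpiLC replicate 1 and -0.36 without D6PGCLC replicate 2 (adjusted p = 0.0168 and 0.0182). It was -0.16 without EpiLC replicate 2 (adjusted p = 0.281), and did not pass without EpiLC replicate 3, D6PGCLC replicate 1 or D6PGCLC replicate 3 (adjusted p = 0.108, 0.158 and 0.173). With all samples it passed under each of the 5 other settings, among them a fit blocked on replicate number (adjusted p = 0.0308) and DESeq2 (adjusted p = 0.023). The difference between D6PGCLCs and ESCs (log2 fold change 0.27, standard error 0.11, adjusted p = 0.047) was lost without ESC replicate 1, 2 or 3 (adjusted p = 0.179, 0.0785 and 0.053) and without D6PGCLC replicate 2 (adjusted p = 0.223).

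*Yaf2* (ENSMUSG00000022634, chromosome 15 from 93284278 to 93336935 on the minus strand) had the lowest CPM of the 10 genes and the largest fold between its highest and lowest group. It was at 7.04, 4.82 and 5.19 CPM in ESCs, 12, 9.41 and 10 CPM in EpiLCs and 5.21, 4.84 and 5.7 CPM in D2PGCLCs. It then stood at 8, 9.97 and 10.4 CPM in D4PGCLCs and 10.7, 11.9 and 11.5 CPM in D6PGCLCs. Every ESC and D2PGCLC sample was below every sample of the other 3 groups. *Yaf2* rose into EpiLCs (log2 fold change 0.88, standard error 0.17, adjusted p = 0.00026), fell into D2PGCLCs (log2 fold change -0.99, standard error 0.17, adjusted p = 7.1e-05) and rose again by D4PGCLCs (log2 fold change 0.85, standard error 0.17, adjusted p = 0.00328). From D2PGCLCs to D6PGCLCs it rose 2.16-fold (log2 fold change 1.11, standard error 0.17, adjusted p = 5.28e-05), the one change of more than 2-fold among the 10 genes in any pair of groups (1 of 10, where 13.6% of all genes changed that much between those days). That change was 1.16 on the log2 scale without D6PGCLC replicate 1 (adjusted p = 0.000128), and it passed without each of the 6 samples in turn. D6PGCLCs and EpiLCs overlapped, and their difference did not pass (log2 fold change 0.12, standard error 0.16, adjusted p = 0.552).

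*Cbx3* and *Wdr5* encode subunits that PRC1.6 shares with other machinery. CBX3 (HP1γ) reads methylated histone H3 lysine 9, and WDR5 is also a core part of the complexes that methylate histone H3 lysine 4. *Cbx3* (ENSMUSG00000029836, chromosome 6 from 51470360 to 51483704 on the plus strand) was at 236, 215 and 224 CPM in ESCs and 249, 237 and 242 CPM in EpiLCs. It was at 204, 224 and 202 CPM in D2PGCLCs, 193, 171 and 196 CPM in D4PGCLCs and 172, 178 and 180.0 CPM in D6PGCLCs. The EpiLC samples lay above all others. No difference between groups next to each other in the order of levels passed (adjusted p = 0.229 for EpiLC with ESC). From EpiLCs to D6PGCLCs it fell by 27.1% (log2 fold change -0.46, standard error 0.07, adjusted p = 3.17e-05), with no overlap.

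*Wdr5* (ENSMUSG00000026917, chromosome 2 from 27515157 to 27536535 on the plus strand) went the opposite way from most of the others. It was at 308, 311 and 303 CPM in ESCs and at 156, 156 and 161 CPM in EpiLCs, a fall of 48.7% (log2 fold change -0.96, standard error 0.06, adjusted p = 3.75e-10). D2PGCLCs had 226, 235 and 235 CPM, D4PGCLCs 233, 252 and 249 CPM and D6PGCLCs 260.1, 263 and 252 CPM. The EpiLC samples were below and the ESC samples above every other sample. *Wdr5* rose from EpiLCs to D2PGCLCs (log2 fold change 0.56, standard error 0.06, adjusted p = 6.25e-07), and D6PGCLCs were above EpiLCs (log2 fold change 0.71, standard error 0.06, adjusted p = 2.12e-08) and below ESCs (log2 fold change -0.25, standard error 0.06, adjusted p = 0.00265).

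**Figure D1:**
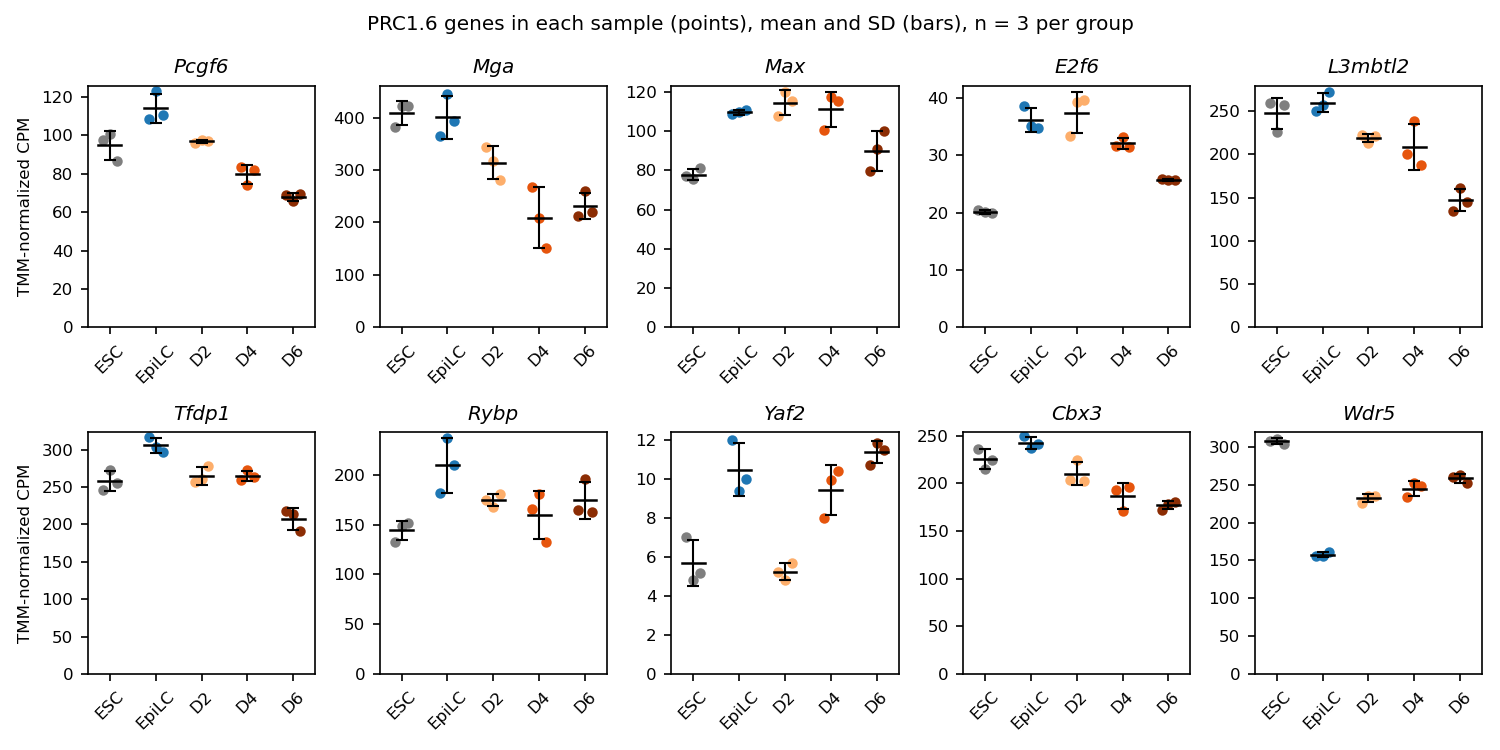
TMM-normalized CPM of the 10 PRC1.6 genes in each sample, 1 panel per gene with its own axis from 0. Points are the 3 samples of a group, the long bar is their mean and the whiskers are the SD. *Pcgf6*, *L3mbtl2* and *Tfdp1* are lowest in D6PGCLCs, *Wdr5* dips to 156–161 CPM in EpiLCs, and *Yaf2* is low in ESCs and D2PGCLCs.

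The order of the groups differed between genes. For *Pcgf6* it ran EpiLC, D2PGCLC, ESC, D4PGCLC, D6PGCLC from high to low, and D2PGCLC with ESC (adjusted p = 0.777) and D4PGCLC with D6PGCLC (0.0622) were the neighbours that did not pass. For *L3mbtl2* only the last step, from D4PGCLC to D6PGCLC, passed among neighbours. For *Mga* the order was ESC, EpiLC, D2PGCLC, D6PGCLC, D4PGCLC, and the steps from EpiLC to D2PGCLC (0.0477) and from D2PGCLC to D6PGCLC (0.0217) passed. *Max* and *E2f6* were both highest in D2PGCLCs, with D6PGCLC next to last and ESC last, and in both the steps among the 3 highest groups did not pass. For *Wdr5* the steps from ESC to D6PGCLC and from D2PGCLC to EpiLC passed and those between PGCLC days did not. None of the neighbouring steps of *Rybp* or *Cbx3* passed.

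Levels between genes were compared per kilobase of exon. In EpiLCs *Tfdp1* was highest at 83.3 ± 2.72 CPM per kb (SD, n = 3), followed by *Rybp* at 44.2 ± 5.88, *Wdr5* at 43.8 ± 0.796, *L3mbtl2* at 43.7 ± 1.9 and *Cbx3* at 40.5 ± 1.04 CPM per kb. *Max* stood at 30.5 ± 0.338, *Mga* at 26.1 ± 2.67 and *Pcgf6* at 22.7 ± 1.53 CPM per kb. *E2f6* (6.38 ± 0.367) and *Yaf2* (5.59 ± 0.729 CPM per kb) were the lowest, as they were in each of the 5 groups. In ESCs and D6PGCLCs *Wdr5* was the highest of the 10, at 85.5 ± 1.06 and 71.9 ± 1.57 CPM per kb. These values carry no test, since exon length merges all isoforms.

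**Figure D2:**
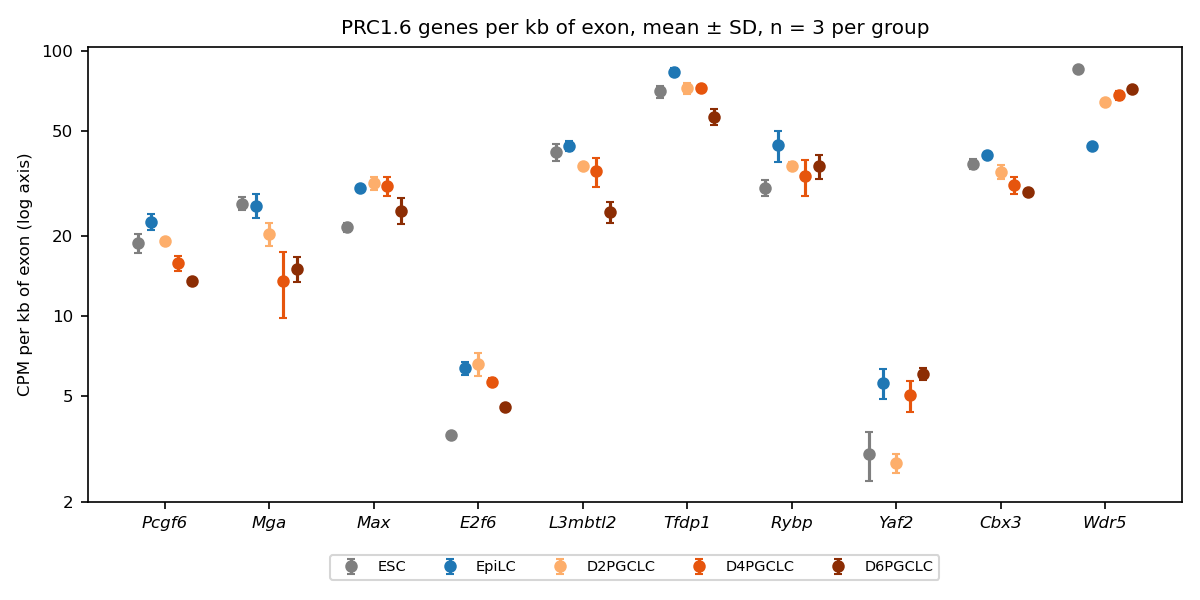
Mean CPM per kb of exon of each PRC1.6 gene in the 5 groups, on a log axis, with the SD over 3 samples as whiskers. *E2f6* and *Yaf2* lie under 7 CPM per kb in every group, and the other 8 genes lie above 13.

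Most PRC1.6 genes rose from ESCs to EpiLCs and most fell by D6PGCLCs, in steps that were small beside those of many other genes. From ESCs to EpiLCs 7 of 10 passed, where 52.5% of all 18090 genes did. Of these, *Pcgf6*, *Max*, *E2f6*, *Tfdp1*, *Rybp* and *Yaf2* were higher (6 of 10, background 26.3%) and *Wdr5* was lower (background 26.2%). The samples did not overlap for 8 of the 10 (background 63.5%). The median log2 fold change of the 10 was 0.25, beside -0.01 over all genes. From EpiLCs to D6PGCLCs 8 passed (background 57.4%). *Pcgf6*, *Mga*, *Max*, *E2f6*, *L3mbtl2*, *Tfdp1* and *Cbx3* were lower (7 of 10, background 27.2%) and *Wdr5* was higher (background 30.2%), and 8 of the 10 had no overlap, all but *Rybp* and *Yaf2* (background 63.1%). The median of the 10 was -0.47, beside 0.03 over all genes. Without D6PGCLC replicate 1, 7 passed, *Max* was the one lost, and the median was -0.46. Against ESCs all 10 passed in D6PGCLCs (background 53.7%), with *Max*, *E2f6*, *Rybp* and *Yaf2* higher (background 27.7%) and *Pcgf6*, *Mga*, *L3mbtl2*, *Tfdp1*, *Cbx3* and *Wdr5* lower (background 26.0%). The log2 fold changes there were -0.82 for *Mga*, -0.75 for *L3mbtl2*, -0.35 for *Cbx3* and 0.998 for *Yaf2*. Samples of 9 genes did not overlap, *Max* being the exception (background 62.0%). All 10 also passed without D6PGCLC replicate 1, and the calls of *Max* and *Rybp* were the ones lost without other samples. The comparisons of D6PGCLCs share those samples, and both EpiLC comparisons share the EpiLC samples, so they are not independent of each other. None of the 10 reached the absolute log2 fold change of 1 that would make it a differentially expressed gene (DEG) in these 3 comparisons, where 26.2%, 27.9% and 26.2% of all genes did.

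**Figure D3:**
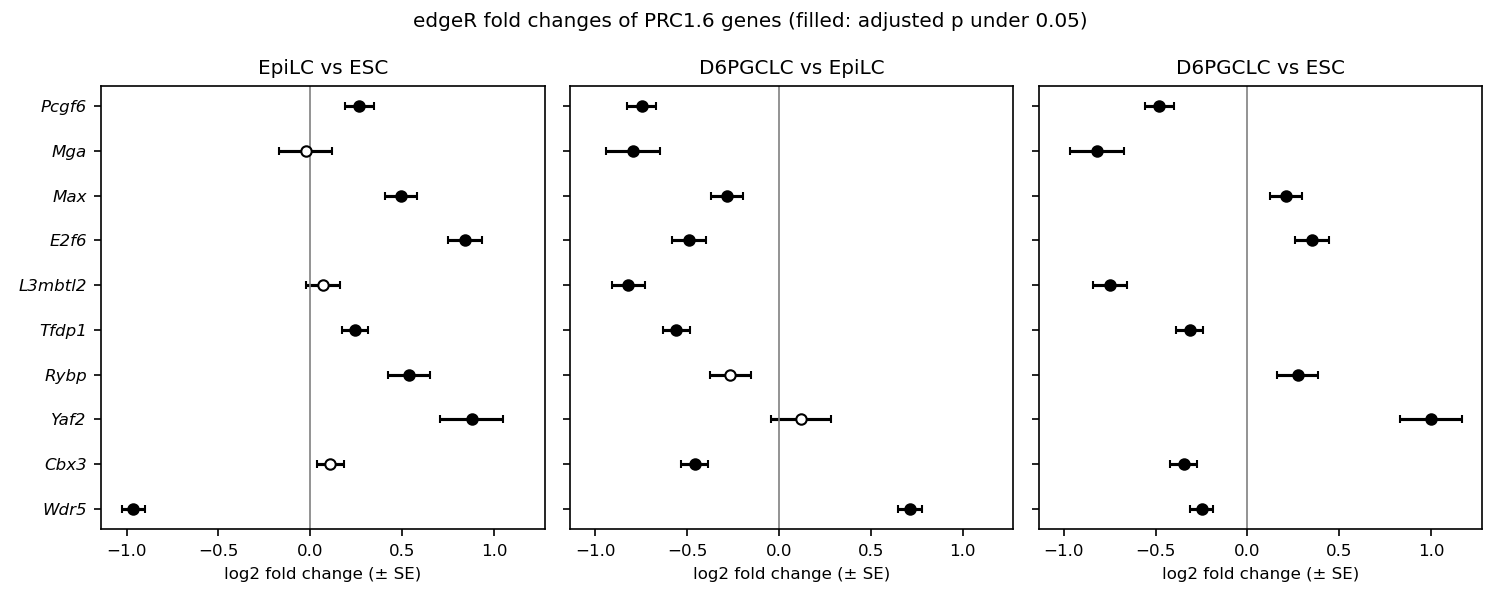
The log2 fold change of each PRC1.6 gene in 3 comparisons, with whiskers of 1 standard error from the edgeR fit and filled points at an adjusted p under 0.05. In EpiLC vs ESC *Wdr5* at -0.96 is alone on the left among passing genes, and in D6PGCLC vs EpiLC it is alone on the right at 0.71.

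Between neighbouring time points of the induction, many of the calls rested on single samples. From EpiLCs to D2PGCLCs 7 of 10 passed (background 53.2%). *Wdr5* was higher (background 27.2%), and *Yaf2*, *Mga* (-0.35), *L3mbtl2* (-0.25), *Pcgf6* (-0.24), *Tfdp1* (-0.21) and *Cbx3* (-0.21, all log2 fold changes) were lower (6 of 10, background 26.0%). Only *Wdr5* and *Yaf2* passed without each of the 6 samples in turn. Without EpiLC replicate 2 or D2PGCLC replicate 1, 3 passed, without EpiLC replicate 3, D2PGCLC replicate 2 or D2PGCLC replicate 3, 4 passed, and without EpiLC replicate 1, 6 did, *Rybp* among them. The highest adjusted p without 1 sample was 0.112 for *Pcgf6*, 0.193 for *Mga*, 0.117 for *L3mbtl2*, 0.0887 for *Tfdp1* and 0.0955 for *Cbx3*. With no filter on low counts 4 passed. From D2PGCLCs to D4PGCLCs 3 passed (background 11.9%), *Yaf2* higher (background 7.26%) and *Mga* (log2 fold change -0.59, standard error 0.14, adjusted p = 0.013) and *Pcgf6* (log2 fold change -0.28, standard error 0.08, adjusted p = 0.0267) lower (background 4.6%). *Mga* was lost without D2PGCLC replicate 1 or D4PGCLC replicate 3 (adjusted p = 0.0652 and 0.0519). *Pcgf6* was lost without any one D2PGCLC sample (0.0686, 0.0657 and 0.0683 for replicates 1, 2 and 3) and without D4PGCLC replicate 2 (0.115). With no filter on low counts *Pcgf6* was lost (0.0685), and with only the 2 groups compared both *Pcgf6* and *Mga* were (0.069 and 0.0586).

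From D4PGCLCs to D6PGCLCs 4 of 10 passed (background 12.8%), all of them lower (background 6.82%). They were *L3mbtl2*, *Tfdp1* (log2 fold change -0.35, standard error 0.07, adjusted p = 0.00408), *E2f6* (log2 fold change -0.32, standard error 0.09, adjusted p = 0.0269) and *Max* (log2 fold change -0.30, standard error 0.09, adjusted p = 0.0272). *L3mbtl2* and *Tfdp1* passed without each of the 6 samples in turn. *E2f6* was lost without D4PGCLC replicate 2 (adjusted p = 0.0882) and without any one D6PGCLC sample (0.0642, 0.0569 and 0.0642 for replicates 1, 2 and 3). *Max* was lost without D4PGCLC replicate 2 or 3 (0.106 and 0.0789) and without D6PGCLC replicate 1 or 2 (0.135 and 0.0519). When the fit held only the 2 groups compared, *L3mbtl2* alone passed. *E2f6* was also lost with no filter on low counts (adjusted p = 0.0901).

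Subunits that pair or compete were set against each other as ratios of CPM per kb, given as descriptions with no test. *Rybp* exceeded *Yaf2* in every sample. The ratio was 10.4 ± 2.55 in ESCs (SD, n = 3) and 8.07 ± 2.01 in EpiLCs. It stood at 13.2 ± 0.6 in D2PGCLCs, then at 6.79 ± 1.59 in D4PGCLCs and 6.05 ± 0.469 in D6PGCLCs. The D2PGCLC samples (12.5 to 13.7) lay above all others, and the D6PGCLC samples (5.58 to 6.52) were in the range of D4PGCLCs and overlapped EpiLCs. The ratio of *Tfdp1* to *E2f6* was 19.8 ± 1.18 in ESCs and between 11 ± 0.834 in D2PGCLCs and 13.1 ± 0.34 in EpiLCs elsewhere. *Max* stood below *Mga* in ESCs, with a ratio of 0.815 ± 0.0484, and above it from EpiLCs (1.17 ± 0.113) on. In D4PGCLCs the ratio was 2.41 ± 0.819, with 1 sample as high as 3.24, and in D6PGCLCs 1.67 ± 0.229. Without D6PGCLC replicate 1 the D6PGCLC means were 6.05 for *Rybp* to *Yaf2*, 12.2 for *Tfdp1* to *E2f6* and 1.71 for *Max* to *Mga*.

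**Figure D4:**
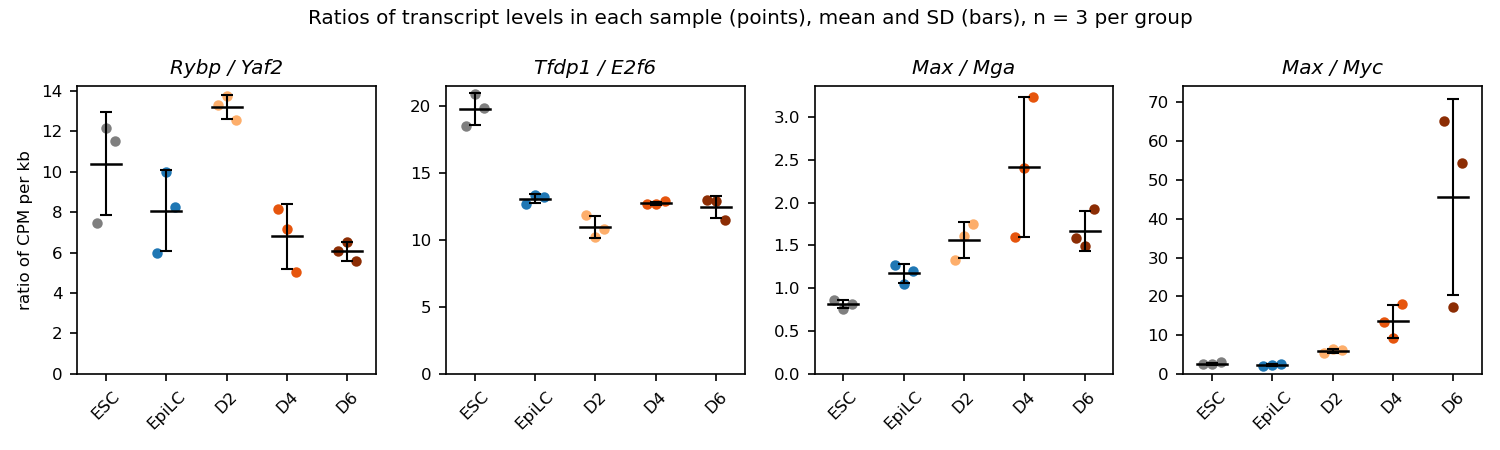
Ratios of CPM per kb in each sample for 3 pairs of PRC1.6 genes and for *Max* over *Myc*, with group means and SD from 3 samples. *Rybp* over *Yaf2* peaks in D2PGCLCs, *Tfdp1* over *E2f6* is highest in ESCs, and *Max* over *Myc* spreads from 17.2 to 65.3 in D6PGCLCs.

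MAX serves MYC factors as well as MGA, and the MYC genes of this wider network had larger falls than *Max* itself. Of 10 other network genes 6 passed from EpiLCs to D6PGCLCs, 5 lower and 1 higher, with a median log2 fold change of -0.21. The share that passed is close to that of all genes there (57.4%). More of the 10 were lower and fewer higher than over all genes (27.2% lower and 30.2% higher). *Myc*, a growth-promoting MAX partner, fell from 36.6 ± 3.63 to 2.1 ± 1.65 CPM (SD, n = 3) (log2 fold change -4.09, standard error 0.34, adjusted p = 9.86e-09). Its paralogues also fell, *Mycl* by 1.95 and *Mycn* by 1.01 on the log2 scale (adjusted p = 8.43e-06 and 3.79e-09). *Mlx*, a MAX-like factor, fell by 0.55 on that scale (adjusted p = 9.8e-05). *Mycn* was the most abundant MYC gene in every group. It was at 202 ± 4.79 CPM in EpiLCs, 100 ± 8.55 in D6PGCLCs and 74.8 ± 1.08 in ESCs. *Myc* was at 22.1 ± 1.36 CPM in ESCs. *Mycl* was at 13.9 ± 0.0351 CPM in ESCs and 9.5 ± 2.09 in D6PGCLCs. Of these genes only *Mycn* was above its ESC mean at day 6. The ratio that follows leaves out *Mycn*. The ratio of *Max* to *Myc* went from 2.28 ± 0.257 in EpiLCs to 5.98 ± 0.573 in D2PGCLCs, 13.6 ± 4.31 in D4PGCLCs and 45.6 ± 25.2 in D6PGCLCs. D6PGCLC replicate 2, at 17.2, stood apart from replicates 1 and 3, at 65.3 and 54.3. Without D6PGCLC replicate 1 the mean ratio was 35.7, 6 of the 10 network genes passed and their median was -0.25.

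All 8 other E2F and DP genes passed from EpiLCs to D6PGCLCs, in both directions (3 higher, 5 lower), where 57.4% of all genes passed (30.2% higher, 27.2% lower). *E2f5* rose from 19.8 ± 1.29 to 40.8 ± 5.83 CPM (log2 fold change 1.04, adjusted p = 2.84e-07) and *E2f1*, an activating factor of the cell cycle, rose by 0.85 on the log2 scale (adjusted p = 2.38e-07). *E2f4*, a repressive factor of resting cells, fell by 0.81 on the log2 scale (adjusted p = 2.37e-06). *Tfdp2*, the other DP partner, fell from 179 ± 8.55 to 103 ± 7.63 CPM (log2 fold change -0.80, adjusted p = 2.68e-08). *Tfdp2* had risen from 60 ± 1.33 CPM in ESCs (log2 fold change 1.57, adjusted p = 3.55e-12), so both DP genes were highest in EpiLCs. Without D6PGCLC replicate 1, 6 of 8 passed, 3 in each direction, which is nearer to the share over all genes, and the median log2 fold change went from -0.29 to -0.22.

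The catalytic and deacetylase subunits that PRC1.6 shares with other complexes moved in both directions, with 3 of 4 higher and 1 lower from EpiLCs to D6PGCLCs (30.2% and 27.2% of all genes). *Ring1* (RING1A) was at 10.1 ± 1.83 CPM in ESCs, 5.22 ± 0.947 in EpiLCs and 23.4 ± 4.32 in D6PGCLCs (SD, n = 3), and it rose from EpiLCs to D6PGCLCs (log2 fold change 2.17, standard error 0.22, adjusted p = 1.18e-07). *Rnf2* (RING1B), the more abundant E3 ligase gene at 91.5 ± 6.73 CPM in EpiLCs, rose slightly (log2 fold change 0.31, adjusted p = 0.00623), and *Hdac2* rose by 0.42 on the log2 scale (adjusted p = 0.00037). *Hdac1* fell from 420.5 ± 14 to 231 ± 8.62 CPM (log2 fold change -0.87, standard error 0.07, adjusted p = 1.16e-08). These 4 calls were also made without D6PGCLC replicate 1. Levels in ESCs were 105 ± 7.51 CPM for *Rnf2*, 209 ± 3.27 for *Hdac2* and 448 ± 36 for *Hdac1*. *Hdac2* was at 145 ± 7.32 CPM in EpiLCs. In D6PGCLCs *Rnf2* was at 113 ± 3.88 and *Hdac2* at 195 ± 13.3 CPM. Against ESCs 2 of the 4 passed in D6PGCLCs, 1 higher and 1 lower (27.7% and 26.0% of all genes), with or without D6PGCLC replicate 1.

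The 5 other PCGF genes, which define the other PRC1 variants, all rose from EpiLCs to D6PGCLCs while *Pcgf6* fell (30.2% of all genes were higher there). Their median log2 fold change was 0.65. *Bmi1* (PCGF4) rose from 11.6 ± 0.791 to 23.8 ± 1.7 CPM (log2 fold change 1.03, adjusted p = 1e-05), *Pcgf1* by 0.86 (adjusted p = 9.33e-06), *Pcgf2* by 0.65 (adjusted p = 3.61e-06) and *Pcgf5* by 0.60 (adjusted p = 0.00039), all on the log2 scale. The remaining one was *Pcgf3*, and without D6PGCLC replicate 1, 4 of 5 passed with the median again at 0.65. Relative to ESCs 3 of the 5 were higher in D6PGCLCs and none was lower (27.7% and 26.0% of all genes), with or without that sample. From ESCs to EpiLCs 3 of the 5 were lower and 1 was higher (26.2% and 26.3% of all genes). *Bmi1* had been at 26.5 ± 0.466 CPM in ESCs. *Pcgf1* was at 16.9 ± 1.1 CPM in ESCs, 7.65 ± 0.549 in EpiLCs and 13.9 ± 0.399 in D6PGCLCs.

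Germline genes had larger fold changes than the PRC1.6 genes, before as well as after the EpiLC state. Of the 18 listed, 13 were higher and 4 lower in EpiLCs than in ESCs (26.3% and 26.2% of all genes), with a median log2 fold change of 1.85. Over that interval 6 of the 10 PRC1.6 genes were higher and *Wdr5* was lower (the same shares of all genes). *Mga*, *L3mbtl2* and *Cbx3* did not pass there. From EpiLCs to D2PGCLCs 9 of the 18 germline genes were higher and 4 lower (27.2% and 26.0% of all genes). In D6PGCLCs 16 were higher than in EpiLCs and none was lower (background 30.2% and 27.2%), with a median of 1.68. Without D6PGCLC replicate 1, 15 were higher and the median was 1.61. The 4 with the largest changes were *Dazl* (log2 fold change 6.07), *Stra8* (4.66), *Tuba3b* (3.26) and *Stag3* (2.80), with adjusted p of 9.52e-14, 2.03e-11, 1.16e-08 and 1.73e-12. *Stra8*, a meiosis gatekeeper, rose from 6.3 ± 0.808 CPM in EpiLCs to 27.7 ± 5.55 in D4PGCLCs and 159 ± 32.6 in D6PGCLCs (SD, n = 3). *Stag3*, a meiotic cohesin gene, rose from 10 ± 1.09 to 69.7 ± 5.72 CPM but was already at 34.7 ± 2.7 CPM in ESCs. *Tuba3a* and *Tuba3b* are near-identical tubulin genes, and reads may be split between them, so the value of either is uncertain. The list was chosen with earlier results of these samples known, and its direction is not independent evidence.

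**Figure D5:**
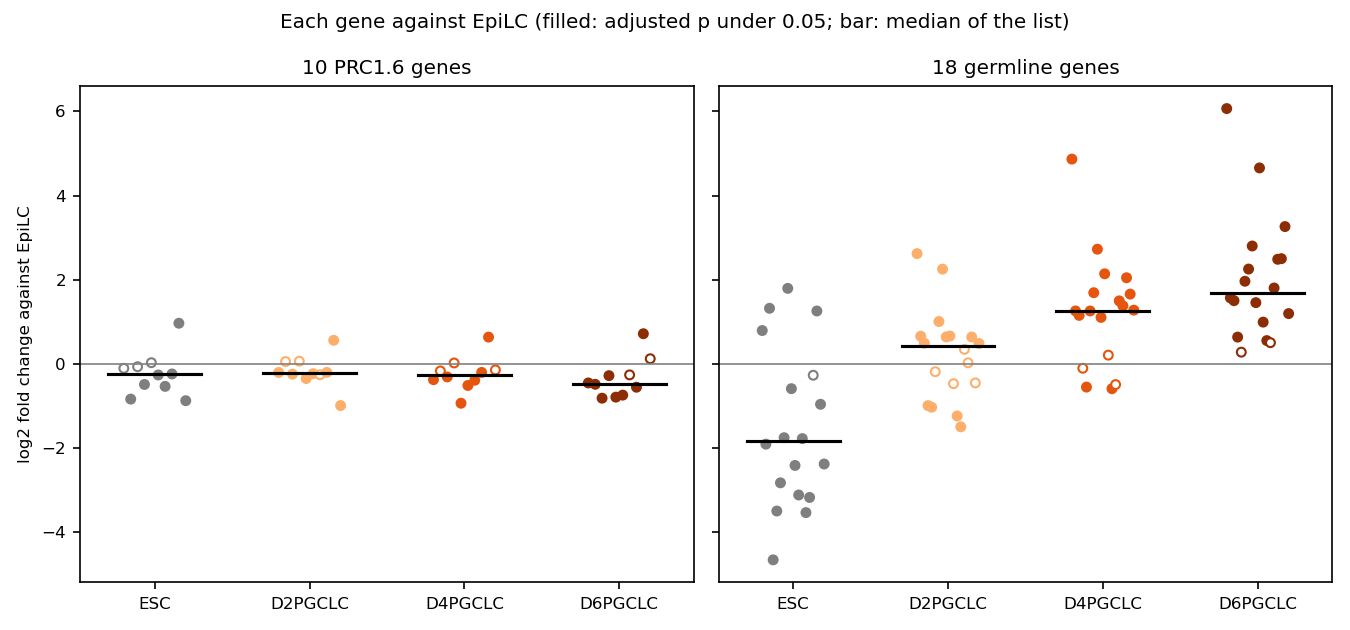
The log2 fold change against EpiLCs of the 10 PRC1.6 genes (left) and the 18 germline genes (right) in ESCs and at the 3 PGCLC days. Each point is a gene, filled at an adjusted p under 0.05, and the bar is the median of the list. All 4 columns share the EpiLC samples. PRC1.6 genes stay within 1 log2 unit of EpiLCs, while germline genes reach 6.07 in D6PGCLCs.

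Across the 15 samples the PRC1.6 genes fell into no single pattern, as a description over samples that share libraries and groups. On the scale of log2(CPM + 1), *Max* and *E2f6* were most alike (Pearson r = 0.916), then *Pcgf6* and *Cbx3* (r = 0.898) and *Pcgf6* and *Tfdp1* (r = 0.824). *Pcgf6* and *Max* had r = 0.222, and the lowest value was that of *Rybp* and *Wdr5* (r = -0.75). Among the other 18089 genes tested, those most like *Pcgf6* were *Tlk1* (0.965), *Rsl1d1* (0.957) and *Sall1* (0.957). For *Mga* they were *Taok1* (0.966), *Birc6* (0.965) and *Ncapg2* (0.963), and for *L3mbtl2* *Enox1* (0.968), *Mcm10* (0.962) and *Ino80e* (0.953). For *Max* they were *Mrpl15* (0.969), *Hnrnpa1* (0.958) and *Puf60* (0.951). *E2f6* was most like *Tfb1m* (0.982), *Bspry* (0.973) and *Mycn* (0.968), the last a MAX partner itself.

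Reads from copies of these genes were few. The pseudogene *Rybp-ps* held 0.583% of the counts of *Rybp* over all samples, *Cbx3-ps6* 1.44% and *Cbx3-ps7* 0.317% of those of *Cbx3*, each of the other 6 *Cbx3* pseudogenes at most 0.120%, and the related gene *Wdr5b* 0.432% of those of *Wdr5*. *Chadl*, which lies on the strand opposite to *L3mbtl2* and overlaps it (the strand setting of the counting is not given), had 6 to 78 counts per sample, while *L3mbtl2* had at least 5132.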

How the data were processed

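Libraries were made from total RNA with a directional kit. The authors deposited 1 table of raw read counts per Ensembl gene for all 15 samples. The submitters' processing notes name Trim Galore, FastQC, STAR and the mm10 build. The counting tool, its strand setting and the annotation release are not given in the sources used here. A count summed over a gene merges its isoforms, and reads of near-identical copies may be lost or split.

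All 55536 gene IDs matched GENCODE M21, which gave symbols, coordinates (GRCm38) and exon lengths. Genes were filtered with filterByExpr (minimum count 10, 18090 kept), scaled by TMM and tested with the quasi-likelihood test of edgeR 4.0.16 (R 4.3.3) with Benjamini-Hochberg adjustment, in a fit of all 15 samples where each group has its own mean. Standard errors were derived from the F statistic. DESeq2 1.42.0, the tool named in the study's methods, was an alternative, with DESeq2 size factors, no filter, a replicate block, a fit of only the 2 groups compared and leaving out each sample. The other lists and the ratios without D6PGCLC replicate 1, and *Yaf2* in D6PGCLC vs D2PGCLC without 1 sample, were chosen after seeing the data. The main edgeR fit and DESeq2 were tested on simulated counts, for D6PGCLC vs EpiLC only. The alternatives other than DESeq2 were not simulated, nor were changes as small as many of those reported here. Depth was 22555021 to 42725681 counts per sample, and replicates differed by more than sampling noise (chi-square per gene 8.82 to 44.6 over 15 pairs).

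The 10 genes and all lists were chosen with earlier results of these data known. All 10 are named. Of each of 5 further lists at most the 4 genes with the largest absolute log2 fold change among those passing in D6PGCLC vs EpiLC are given with values, and for 5 of the 10 the 3 genes with the highest Pearson r over samples. *Pcgf3* is named outside that rule, as the last of its list. Promoters are from RefSeq, where 8 of the 10 genes and 18 of 18 germline genes matched. No protein sequences were used here.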

Additional observations from a re-analysis of the deposited data

How the results depend on the processing

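The counts of PRC1.6 genes passing from ESCs to EpiLCs (7), from EpiLCs to D6PGCLCs (8) and from ESCs to D6PGCLCs (10) stayed within 1.5 times their value under every alternative run. Leaving out 1 sample gave 6 to 7, 7 to 9 and 8 to 10. The single steps depended on the settings, and the cause was not tested. From EpiLCs to D2PGCLCs 7 became 4 with no filter on low counts and 3 to 6 without 1 sample. From D2PGCLCs to D4PGCLCs 3 became 1 with only the 2 groups compared and 1 to 3 without 1 sample, and from D4PGCLCs to D6PGCLCs 4 became 1 and 2 to 4. Of 660 single-gene values under alternatives in these 6 comparisons, 579 kept direction and side of the threshold, 56 lost and 13 gained the call, and 12 changed sign. None of those that changed sign had passed. They were *Mga* from ESCs to EpiLCs, at -0.03 and then 0.0102 with DESeq2 size factors and 0.00928 with DESeq2 (-0.0957 to 0.053 without 1 sample), *Tfdp1* from D2PGCLCs to D4PGCLCs with no filter (0.00254, and -0.0235 to 0.0376 without 1 sample), and, without 1 sample, *Max* (-0.0844 to 0.0255) and *L3mbtl2* (-0.175 to 0.00703) over that step and *Mga* from D4PGCLCs to D6PGCLCs (-0.0457 to 0.358). Scaling moved the median log2 fold change of all genes by less than 0.1.

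Whether samples with the same replicate number belong together is not stated in the labels, and the values here do not settle it. The correlation of deviations from group means was 0.07 on average (-0.18 to 0.36 over 30 pairs) for samples with the same number and -0.04 over 60 pairs with different numbers, and 9 of 15 samples correlated best with their own number. With the replicate number as a block, 7, 8, 3, 4, 9 and 10 genes passed in the 6 comparisons in the order EpiLC vs ESC, D2PGCLC vs EpiLC, D4PGCLC vs D2PGCLC, D6PGCLC vs D4PGCLC, D6PGCLC vs EpiLC and D6PGCLC vs ESC. The gain was *Rybp* in both comparisons with EpiLC (adjusted p = 0.0417 at day 2 and 0.0308 at day 6).

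With 3 samples per group, small changes lie near the limit of detection. The raw counts of *Yaf2* were as low as 110, and the calls of the single steps often turned on 1 sample.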
